A study of Mus musculus with 30 samples.

Results

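Removal of WS and removal of PD were compared directly: 2 libraries from cells that had lost WS and 2 from cells that had lost PD, 4 of the 10 libraries of a removal experiment and 4 of the 30 of the series. The cells were OG2 mouse embryonic fibroblasts (genotype 129XOG2, from mice that carry a GFP reporter of the pluripotency gene Oct4) taken through reprogramming with small molecules. In each removal arm 1 molecule was left out from day 8 to day 12, and RNA was collected on day 12. The groups used here are -WS, -PD, -CHIR, -VC and CT, with 2 libraries each. The labels do not spell out CT; it is read here as the arm that kept every molecule, its title being the one without a minus sign, and it was left out of the fit whose values are given here, though its libraries counted in the filter on low values. WS and VC are not spelled out either. The labels name PD0325901 and CHIR99021 in full only for the medium of the final stem cells, so PD is used here as written. All 5 groups were bulk cultures, in which fewer cells of a type and less RNA per cell cannot be told apart, and nothing in the labels says whether the 2 libraries of a group were grown separately. The p-values therefore speak of the spread between these libraries, which may be technical.

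In chemical reprogramming, fibroblasts are moved towards pluripotency by compounds that act on signalling and chromatin, without added transcription factor genes. PD0325901 is an inhibitor of MEK, the kinase that activates ERK. ERK signalling is known for switching on its own feedback inhibitors (Dusp phosphatases, Sprouty and Spred proteins) and early transcription factors such as Egr1 and Fos. Fibroblasts in culture also carry a contractile and matrix-producing programme, driven by TGF-beta, SRF and YAP, and a set of matrix proteases and cytokines that AP-1 and NF-kB factors control.

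Depth, read from the steps between the lowest values of single-exon genes, differed little between the 4 libraries, with 35100000 to 39100000 steps in each; a step may be 1 read or 1 fragment. The share of FPKM on the 13 mitochondrial genes was 7.09% to 8.12% in them. The second CT library stood apart at 2.03%. CT serves below for levels set side by side, for the range of the other libraries and, where said, in a fit with all 10 libraries. With the second CT library left out of the filter, 13259 genes were tested and the same 88 genes were called. Between 12460 and 12559 genes reached 1 FPKM in each of the 4 libraries.

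The 2 removals gave similar profiles. Across the 13290 tested genes the median absolute difference between the means of WS and PD removal was 0.12 on the log2(FPKM + 1) scale. Between the 2 libraries of one group it was 0.0847 for WS and 0.107 for PD. A difference of over 2-fold was found for 99 genes between the removals, against 31 genes between the WS libraries and 44 between the PD libraries. The figures between removals compare means of 2 libraries and those within a group compare single libraries. Single libraries vary more than means, so these are not like measures. In the limma fit over the 8 removal libraries, 88 genes (0.662% of those tested) were called, which means a Benjamini-Hochberg adjusted p under 0.05 over all tested genes and a difference of at least 2-fold. Of these, 34 (0.256%) were higher with WS removed and 54 (0.406%) were higher with PD removed. The other 5 pairs of removals in the same fit had 345 to 542 called genes each. The 2 WS and the 2 PD libraries did not overlap in any of the 88. The rule for calling makes this likely, and the share over all tested genes was not counted, so it adds no support. Differences below are WS minus PD on the log2(FPKM + 1) scale, so that negative values mean a higher level with PD removed. At low FPKM this scale shows less than the true fold.

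**Figure D1:**
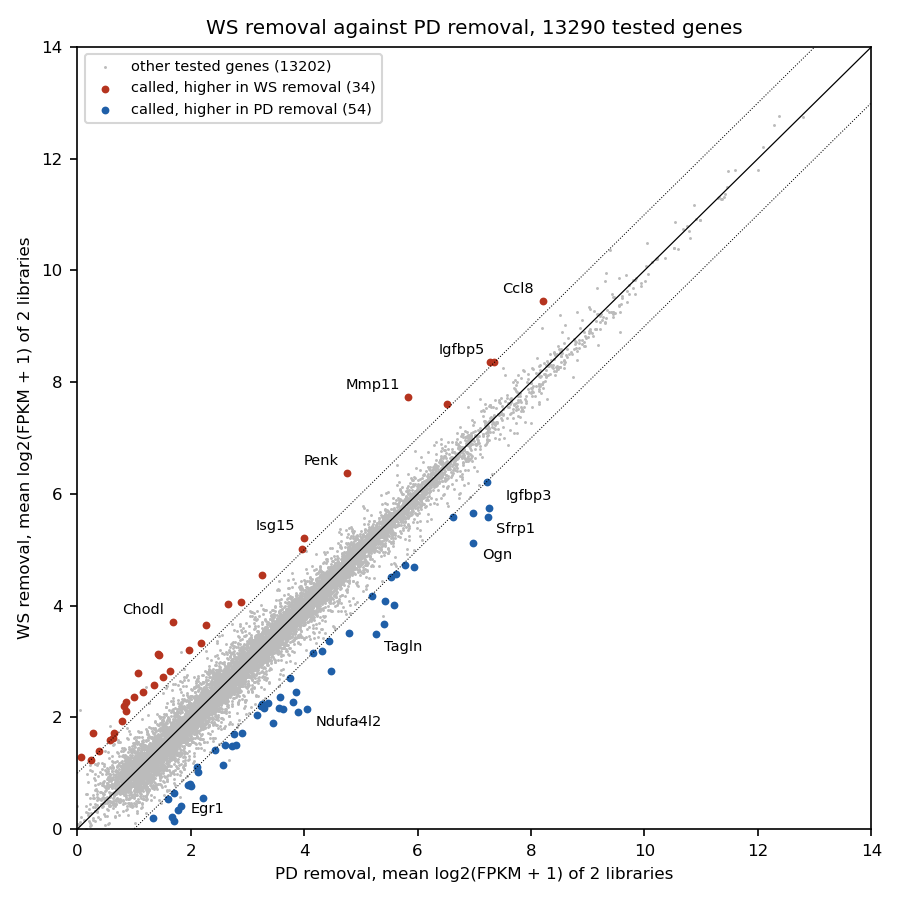
Each point is 1 of 13290 tested genes, with the mean log2(FPKM + 1) of the 2 PD removal libraries on the x axis and that of the 2 WS removal libraries on the y axis. Red and blue points are the 34 and 54 called genes, the solid line is equality and the dotted lines are 2-fold differences; most genes lie close to the solid line, and Ccl8 is the called gene with the highest level.

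At an adjusted p under 0.05 alone, with no limit on size, 1789 genes (13.5%) passed, 699 (5.26%) higher with WS removed and 1090 (8.2%) higher with PD removed. This looser count rests on the spread shared by the 8 libraries. It was 404 and 596 in the 4 libraries fitted alone, and 347 and 489 without the first WS library or 308 and 512 without the second. "Passed" below refers to this looser rule, and "called" to the rule with the 2-fold limit. The median difference of all tested genes was -0.03, and list medians are to be read beside it, as the list counts are beside the 5.26% and 8.2% of all tested genes.

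Of 18 listed ERK feedback genes and targets, 12 were tested; 7 of these passed with higher levels in PD removal, none in the other direction, and the list median was -0.49. Egr1, an early transcription factor that ERK induces within minutes, was at 2.18 and 2.34 FPKM with PD removed and at 0.0822 and 0.117 FPKM with WS removed. The other 6 libraries held 0.0306 to 0.0939 FPKM. Egr1 was thus above 1 FPKM in the PD removal libraries alone, and passed the filter on low values through them, so it had to differ. Its difference was -1.57 ± 0.12 (SE) (adjusted p = 0.00012), and this p-value adds no support. Dusp6, the phosphatase that removes the activating phosphates from ERK, had the same layout. Its levels were 1.800 and 2.27 FPKM with PD removed, 0.364 and 0.540 FPKM with WS removed and at most 0.205 FPKM elsewhere, a difference of -1.06 ± 0.14 (SE) (adjusted p = 0.00208). The WS removal libraries were the next highest for Dusp6, above all 6 libraries of the remaining groups. Without the first WS or the second PD library the Dusp6 difference was -0.97 or -0.95, under the 2-fold limit.

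Spry1, a Sprouty inhibitor of receptor signalling upstream of ERK, was at 4.01 and 4.12 FPKM with PD removed and 1.72 and 1.497 FPKM with WS removed (difference -0.96 ± 0.12 (SE), adjusted p = 0.00166). Its relative Spred2 differed by -0.67 ± 0.11 (SE) (adjusted p = 0.00705) and Spry2 by -0.45 ± 0.08 (SE) (adjusted p = 0.0111). Ccnd1, cyclin D1, which couples growth factor signals to the cell cycle, stood at 31.1 and 32.9 FPKM with PD removed against 17.2 and 19.2 FPKM, a difference of -0.78 ± 0.10 (SE) (adjusted p = 0.00132). Epha2, a receptor tyrosine kinase and ERK target, reached 1 FPKM with PD removed alone, at 2.41 and 2.16 FPKM against 0.817 and 0.658 FPKM. Since Dusp6 and Epha2 entered the test through the PD removal libraries alone, they had to differ. Of the other 10 tested members 5 passed. The early response gene Ier3 passed with -0.44 ± 0.07 (SE). Spry2 did not pass when either WS library was left out (adjusted p = 0.0695 and 0.0568) or the first PD library (0.0512), nor Spred2 without the second WS library (0.056). Of the 5 tested members that did not pass, Dusp4 had 2.30 and 1.32 FPKM with PD removed and 0.901 and 0.932 FPKM with WS removed, and its PD libraries lay apart from each other. The 6 members below the filter (among them Dusp5, Spry4, Etv4 and Etv5) lay at 0.0941 to 1.04 FPKM with PD removed and 0.0413 to 0.344 FPKM with WS removed.

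Immediate-early factors did not move as a block. Of 12 tested members, 4 passed with higher levels in WS removal and 2, Egr1 and Fos, with higher levels in PD removal. The median was -0.06. Since Egr1 entered the test through the PD removal libraries alone, it had to differ. Of the other tested members only Fos passed in that direction. Fos was at 4.52 and 4.61 FPKM with PD removed and 2.58 and 2.47 FPKM with WS removed (difference -0.66 ± 0.11 (SE), adjusted p = 0.00551). Its dimer partner in AP-1, Jun, had the opposite sign, with 50.1 and 49.5 FPKM against 73.5 and 72.0 FPKM (difference 0.54 ± 0.05 (SE), adjusted p = 0.000211). Atf3, a stress-induced relative, differed by 0.67 ± 0.11 (SE), Jund by 0.38 ± 0.07 (SE) and Fosl2 by 0.19 ± 0.05 (SE) (adjusted p = 0.0368), all higher with WS removed. The WS-higher count of 4 was 2 when either WS library was left out, where Jund had adjusted p = 0.0736 and 0.0503 and Fosl2 0.0702 and 0.2.

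Of 16 tested contractile and TGF-beta response genes, 12 passed with higher levels in PD removal and none the other way, with a list median of -0.61; 4 were called. Lmod1, a smooth muscle actin regulator, reached 1 FPKM in PD removal alone and so had to differ; 11 of the other 15 passed. Acta2, smooth muscle actin and the usual marker of activated fibroblasts (chr19:34241090-34255590, minus strand), was at 43.4 and 39.6 FPKM with PD removed and 11.8 and 11.5 FPKM with WS removed. CT held 25.6 and 22.2 FPKM, -CHIR 25.3 and 24.2 FPKM and -VC 35.1 and 34.6 FPKM, so that WS removal was the lowest group and PD removal the highest. The difference was -1.74 ± 0.06 (SE) (adjusted p = 4.67e-06). Tagln, the actin-binding protein transgelin, was at 39.5 and 35.3 FPKM with PD removed and 9.61 and 10.98 FPKM with WS removed (difference -1.77 ± 0.09 (SE), adjusted p = 2.55e-05); the -VC libraries, at 34.5 and 40.3 FPKM, overlapped those of PD removal, and WS removal lay below all other libraries. Actg2, the enteric smooth muscle actin, differed by -1.54 ± 0.09 (SE), from 9.68 and 10.1 to 2.45 and 3.08 FPKM. Ltbp2, a matrix protein related to the binding proteins of latent TGF-beta, differed by -1.12 ± 0.09 (SE), from 9.26 and 9.38 to 3.38 and 4.18 FPKM, and by -0.995 without the first WS library.

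Other parts of the contractile machinery passed below the 2-fold limit. Myl9, a myosin light chain, differed by -0.88 ± 0.08 (SE) (adjusted p = 0.000294), the calponin Cnn1 by -0.81 ± 0.11 (SE), and the tropomyosins Tpm1 and Tpm2 by -0.53 ± 0.04 (SE) and -0.72 ± 0.07 (SE). Skil, a feedback inhibitor that TGF-beta induces, passed with -0.50 ± 0.09 (SE), though not without the first WS library (adjusted p = 0.0565). Smad7, another such inhibitor, did not pass at -0.34 ± 0.10 (SE) (adjusted p = 0.0696). None of the 3 ligand genes passed, and Tgfb1 stood at 12.0 and 9.84 FPKM with PD removed and 12.4 and 12.5 FPKM with WS removed. Among the muscle markers, Des, the intermediate filament of muscle cells, differed by -0.999 ± 0.06 (SE) (adjusted p = 6.64e-05). The summed level of the 7 muscle markers was 12.8 and 13.1 FPKM with PD removed and 7.504 and 7.338 FPKM with WS removed. Myod1, which defines skeletal muscle, was at 0 and 0 FPKM with PD removed and 0 and 0.0268 FPKM with WS removed. The part of muscle cells in these differences was not tested.

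YAP targets and CCN matrix proteins went the same way. All 9 tested members passed, 8 with higher levels in PD removal, and the median was -0.47; without the first PD library 5 passed in that direction. Amotl2, a YAP target that feeds back on the pathway, was at 66.7 and 63.3 FPKM with PD removed and 36.7 and 37.2 FPKM with WS removed (difference -0.80 ± 0.06 (SE), adjusted p = 9.11e-05). Ccn2, connective tissue growth factor, differed by -0.65 ± 0.09 (SE) (adjusted p = 0.00258). The exception was Ccn3, at 6.80 and 6.03 FPKM against 7.97 and 8.52 FPKM (difference 0.32 ± 0.07 (SE)), which did not pass without the second WS or the second PD library (adjusted p = 0.101 and 0.0579). Thbs1, thrombospondin 1, a matrix protein that blocks vessel growth, was called with 145 and 152 FPKM against 72.6 and 73.6 FPKM (difference -1.02 ± 0.04 (SE), adjusted p = 1.09e-05); without the second PD library the difference was -0.98. Angpt1 and Angpt4, ligands of the endothelial receptor Tie2, were called as well, at -1.24 ± 0.10 (SE) and -1.08 ± 0.08 (SE).

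The binding proteins of insulin-like growth factors split between the removals. Higher levels in PD removal were called for 4 of them, Igfbp1, Igfbp2, Igfbp3 and Igfbp6, and the opposite sign for Igfbp5. Igfbp3, the main carrier of IGFs in blood, was at 153 and 152 FPKM with PD removed and 53.2 and 51.8 FPKM with WS removed (difference -1.52 ± 0.08 (SE), adjusted p = 2.56e-05). Igfbp2 was at 131 and 118 FPKM against 48.6 and 50.2 FPKM (difference -1.32 ± 0.06 (SE)). For both, the PD removal libraries lay above all other 8. Igfbp1 was at 11.5 and 11.3 FPKM with PD removed, 3.16 and 3.79 FPKM with WS removed and 0 to 1.43 FPKM in the other groups, so that both removals stood above the rest.

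Igfbp5, a matrix-bound member of the family, was at 155 and 167 FPKM with PD removed and 321 and 336 FPKM with WS removed (difference 1.02 ± 0.05 (SE), adjusted p = 1.91e-05). CT held 416 and 327 FPKM, so that PD removal was the lowest group. Igfbp6 was lower in both removals than in every other library, at 51.4 and 40.2 FPKM with PD removed and 21.4 and 22.5 FPKM with WS removed, against 69.5 FPKM or more elsewhere. Both differences lay close to the 2-fold limit: that of Igfbp5 was 0.99 without the second WS library and 0.97 without the first PD library, and that of Igfbp6 was -0.98 without the first WS library and -0.84 without the first PD library. The called genes of this family other than Igfbp6 lie in pairs in the genome. Igfbp3 (chr11:7206086-7213923, minus strand) and Igfbp1 (chr11:7197782-7202546, plus strand) are 3.54 kb apart and had the same sign. Igfbp2 (chr1:72824503-72852474, plus strand) and Igfbp5 (chr1:72857932-72874884, minus strand) are 5.46 kb apart and had opposite signs. Of the growth factors, Igf1 passed with -0.72 ± 0.07 (SE) (adjusted p = 0.000351) and Igf2 with -0.60 ± 0.10 (SE), both higher with PD removed, while Fgf10 passed with 0.66 ± 0.10 (SE), higher with WS removed. In the whole FGF and IGF list 17 members were tested, and 7 passed with higher levels in PD removal and 3 in WS removal.

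Of 21 tested fibroblast and mesenchyme genes, 10 passed higher with PD removed and 4 higher with WS removed, with a median of -0.12. The count of 10 was 5 and 6 without the first and second WS library, and with CT in the fit the counts were 6 and 2. Levels within the list ranged widely, and Meox1, a mesoderm factor, was at or under 0.0586 FPKM in all 4 libraries. Vim, the mesenchymal filament vimentin, was at 569 and 553 FPKM with PD removed and 503 and 482 FPKM with WS removed (difference -0.19 ± 0.04 (SE), adjusted p = 0.0232); it did not pass when either WS library (adjusted p = 0.0767 and 0.167) or either -VC library (0.0543 and 0.0539) was left out. The surface marker Thy1 was at 169 and 159 FPKM with PD removed and 203 and 206 FPKM with WS removed (difference 0.32 ± 0.05 (SE), adjusted p = 0.0029, and 0.31 with CT in the fit). Pdgfra, a growth factor receptor of fibroblasts, was at 66.3 and 66.4 FPKM with PD removed and 59.0 and 62.8 FPKM with WS removed and did not pass. Small proteoglycans of the fibroblast matrix also split. Ogn, osteoglycin, a leucine-rich proteoglycan of connective tissue (chr13:49608046-49624501, plus strand), had the second largest difference among PD-higher genes. It was at 118 and 133 FPKM with PD removed and 33.2 and 34.7 FPKM with WS removed (difference -1.86 ± 0.06 (SE), adjusted p = 4.67e-06). CT, at 128 and 98.1 FPKM, overlapped PD removal, and WS removal was below all other libraries. Its neighbour Aspn, asporin, 40.5 kb away, differed by -1.18 ± 0.07 (SE), from 6.44 and 6.58 to 2.24 and 2.37 FPKM, with -CHIR far above both at 56.1 and 60.4 FPKM. Fmod, fibromodulin, was called in the same direction at -1.17 ± 0.09 (SE). Lum, lumican, went the other way, at 89.3 and 93.1 FPKM with PD removed and 190.3 and 198 FPKM with WS removed (difference 1.08 ± 0.04 (SE), adjusted p = 1.09e-05), and Dcn, decorin, passed at 0.63 ± 0.04 (SE). This set of 11 proteoglycans was put together after values were seen; 10 were tested, 4 passed higher with PD removed and 3 higher with WS removed.

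Collagen genes showed the same mixture. Of 18 tested, 7 passed with higher levels in WS removal and 4 in PD removal, with a median of 0.11; the first count was 4 without the second WS library, where Col1a1 and Col1a2 did not pass (adjusted p = 0.0785 and 0.0692), nor did Col1a1 without the first (0.0721). The fibrillar chains Col1a1, Col1a2 and Col3a1 differed by 0.32 ± 0.06 (SE), 0.31 ± 0.05 (SE) and 0.40 ± 0.05 (SE), all higher with WS removed. Col18a1, the basement membrane collagen from which endostatin is cut, was at 331 and 326 FPKM with WS removed and 159 and 149 FPKM with PD removed (difference 1.08 ± 0.05 (SE), adjusted p = 1.09e-05), and the WS removal libraries lay above all other 8, of which the highest had 168 FPKM. With PD removed, Col8a1, a short-chain collagen of vessel walls, was at 12.7 and 13.3 FPKM against 3.67 and 4.02 FPKM (difference -1.53 ± 0.11 (SE)), and Col11a1, a minor fibrillar chain of cartilage, at 13.2 and 13.9 FPKM against 4.52 and 4.48 FPKM (difference -1.40 ± 0.07 (SE)). P4ha3, a subunit of the hydroxylase that matures collagen chains, differed by -1.63 ± 0.09 (SE), from 22.6 and 19.7 to 6.25 and 6.02 FPKM. Col4a1 and Col4a2, the main chains of basement membranes, passed at -0.46 ± 0.04 (SE) and -0.52 ± 0.05 (SE). Fap, a serine protease of activated fibroblasts, was at 10.3 and 11.2 FPKM with PD removed and 3.25 and 3.74 FPKM with WS removed (difference -1.39 ± 0.09 (SE), adjusted p = 7.45e-05).

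Sfrp1, a secreted antagonist that binds Wnt ligands (chr8:23411502-23449632, plus strand), was at 148 and 152 FPKM with PD removed, 46.5 and 47.9 FPKM with WS removed, 65.3 and 59.3 FPKM in CT and 14.2 and 13.2 FPKM in -VC. PD removal lay above all other libraries; the difference was -1.64 ± 0.05 (SE) (adjusted p = 4.67e-06). Sostdc1, an antagonist of BMP and Wnt signals, differed by -1.30 ± 0.15 (SE), from 6.27 and 5.68 to 1.94 and 1.72 FPKM. Shisa2, which retains Wnt and FGF receptors inside the cell, differed by -1.29 ± 0.07 (SE), from 26.5 and 27.0 to 10.7 and 10.0 FPKM. Of 13 tested Wnt targets, 4 passed higher with PD removed (Notum, Lgr5, Dkk2 and Wif1) and 1 higher with WS removed (Tcf7, adjusted p = 0.0478); Axin2, the most general target, was at 35.5 and 37.3 FPKM with PD removed and 32.4 and 33.0 FPKM with WS removed and did not pass. The count of 4 was 1 when either WS library was left out and 2 without the second PD library; Tcf7 did not pass when any 1 of the 8 libraries was left out (adjusted p = 0.237 for the first WS library). Of 13 tested BMP targets and antagonists, 4 passed higher with PD removed and 2 higher with WS removed, with a median of -0.21; the count of 4 was 2 without the second WS library. The count of 2 was 0 and 1 without the first and second WS library and 1 when the second PD library or either -VC library was left out. The ligand Bmp4 passed at -0.82 ± 0.09 (SE) (adjusted p = 0.000943) with higher levels in PD removal. Grem1, a secreted BMP antagonist, passed the other way at 0.29 ± 0.06 (SE) (adjusted p = 0.0123), but not when either WS library was left out (0.0529 and 0.082). Nog, another antagonist of BMP, and Dkk1, of Wnt, did not pass.

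Single genes of metabolism stood out with PD removed. Ndufa4l2 (chr10:127514967-127517154, plus strand), a mitochondrial protein induced in low oxygen, had the largest difference in this direction. It was at 15.9 and 15.3 FPKM with PD removed and 2.99 and 3.95 FPKM with WS removed (difference -1.90 ± 0.12 (SE), adjusted p = 6.39e-05), and no other library passed 4.85 FPKM. Scd1 and Fads2, desaturases that introduce double bonds into fatty acids, were called at -1.05 ± 0.05 (SE) and -1.04 ± 0.06 (SE). Scd1 stood at 47.5 and 49.1 FPKM with PD removed and between 20.0 and 23.7 FPKM in the other 8 libraries, WS removal included. The Fads2 difference was -0.99 without the first WS library. The related desaturases Fads1 and Scd2 passed at -0.66 ± 0.06 (SE) and -0.72 ± 0.04 (SE). Other PD-higher genes by the size of difference were Hs6st2, a sulfotransferase of heparan sulfate (-1.80 ± 0.11 (SE)), Plac8 (-1.58 ± 0.10 (SE)) and Adm, the vasodilator peptide adrenomedullin (-1.34 ± 0.06 (SE)).

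**Figure D2:**
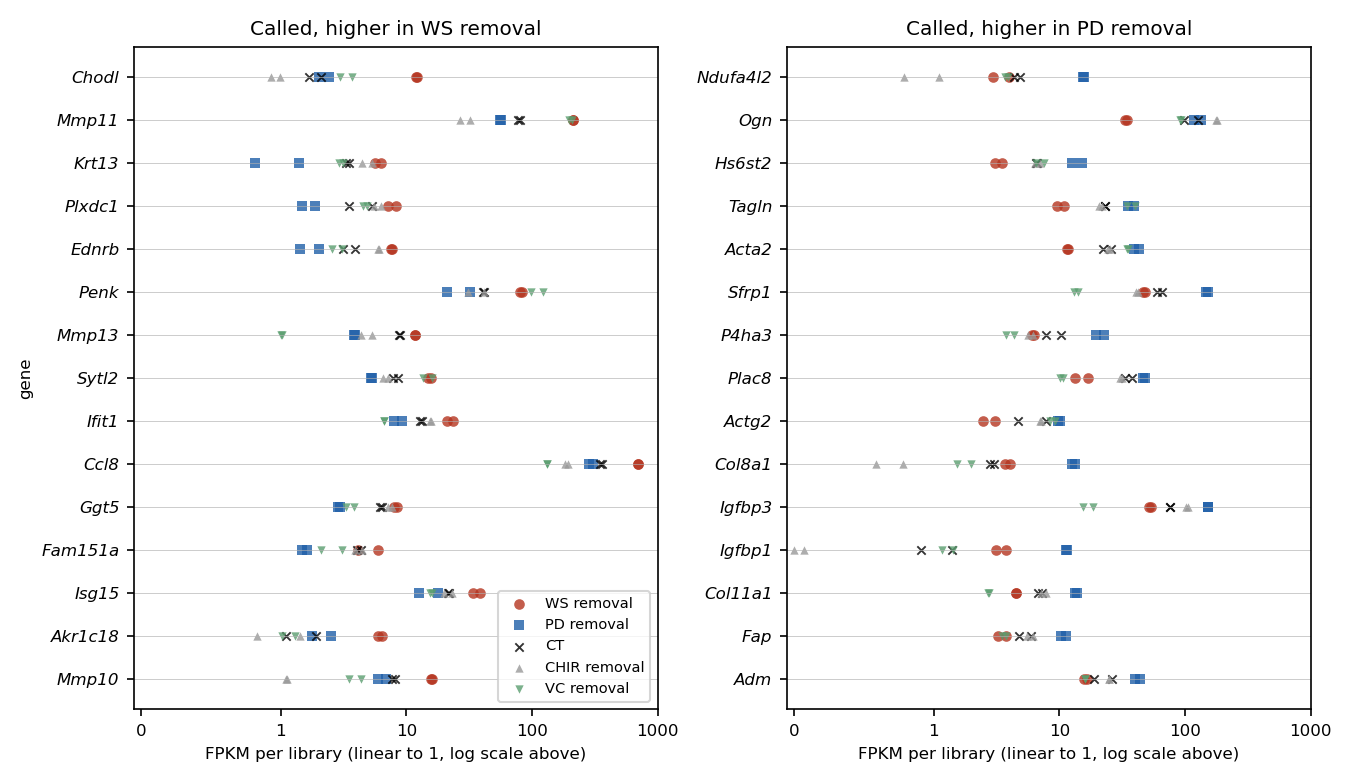
Levels in FPKM in each of the 10 libraries (x axis, linear up to 1 and logarithmic above) for the 15 largest called differences in each direction with a mean of at least 5 FPKM in the higher group. The 30 genes were chosen so that the red circles (WS removal) and blue squares (PD removal) do not overlap. CT (crosses), CHIR removal and VC removal (triangles) lie between them in some genes and outside them in others. Sfrp1 and Ndufa4l2 are higher in PD removal than in all other libraries, and Chodl and Ccl8 are higher in WS removal than in all others.

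Of 18 tested proteases and inhibitors, 10 passed higher with WS removed and 5 higher with PD removed, with a median of 0.30, and all 3 called members were metalloproteinases. Mmp11, stromelysin 3 (chr10:75923222-75936496, minus strand), was at 212 and 213 FPKM with WS removed and 55.2 and 57.0 FPKM with PD removed (difference 1.90 ± 0.08 (SE), adjusted p = 1.09e-05); -VC was nearly as high at 196 and 208 FPKM, and CT had 80.1 and 77.7 FPKM. Mmp13, an interstitial collagenase, was at 11.7 and 11.6 FPKM with WS removed and 3.82 and 3.88 FPKM with PD removed (difference 1.38 ± 0.09 (SE), adjusted p = 7.45e-05). Mmp10, stromelysin 2, was at 15.6 and 15.9 FPKM against 5.94 and 6.85 FPKM (difference 1.18 ± 0.10 (SE), adjusted p = 0.000259). WS removal was above all other libraries for Mmp13 and Mmp10. CT, at 8.88 and 8.79 FPKM for Mmp13, lay between the 2 removals.

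Below the 2-fold limit, Mmp14 and Mmp2, a membrane-bound protease and the gelatinase that it activates, passed at 0.50 ± 0.04 (SE) and 0.44 ± 0.04 (SE), and the urokinase receptor Plaur at 0.56 ± 0.08 (SE). The inhibitors split: Timp2 passed at 0.52 ± 0.04 (SE), Timp1 at 0.32 ± 0.06 (SE) in this fit but not when either WS library was left out (adjusted p = 0.109 and 0.0502) or the second PD library (0.0526), and Timp3 with the opposite sign at -0.89 ± 0.05 (SE) (adjusted p = 2.42e-05), from 64.4 and 68.5 to 35.4 and 35.3 FPKM. Plat, the tissue plasminogen activator, and Adamts5, an aggrecan-cleaving protease, were higher with PD removed, at -0.43 ± 0.05 (SE) and -0.58 ± 0.07 (SE). In the 4 libraries alone, 8 members passed higher with WS removed and 3 higher with PD removed. With CT in the fit these counts were 8 and 2.

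Promoters of Mmp13 and Mmp10 are printed because both hold the AP-1 motif, and Jun and Fos, which bind it, had opposite signs above. The windows are the 250 bases before the start, from RefSeq (GRCm38.p6), with the motif in capitals:
Mmp13 (chr9:7272264-7272513, plus strand): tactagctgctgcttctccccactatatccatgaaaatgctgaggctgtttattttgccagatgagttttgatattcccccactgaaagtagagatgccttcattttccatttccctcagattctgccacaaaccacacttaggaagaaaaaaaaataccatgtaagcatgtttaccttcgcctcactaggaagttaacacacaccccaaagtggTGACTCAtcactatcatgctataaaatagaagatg
Mmp10 (chr9:7502092-7502341, plus strand): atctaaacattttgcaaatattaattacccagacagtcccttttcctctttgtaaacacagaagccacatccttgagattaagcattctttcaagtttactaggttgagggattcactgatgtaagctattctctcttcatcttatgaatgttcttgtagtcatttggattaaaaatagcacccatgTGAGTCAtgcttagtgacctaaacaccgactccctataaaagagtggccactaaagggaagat
The motif begins 35 bases before the start in Mmp13 and 63 bases before it in Mmp10. RefSeq windows of 300 bases, 250 before and 50 after the start, matched 9549 of the 13290 tested genes. The letters TGANTCA, searched on both strands, stood in 4 of 9 windows of the protease and inhibitor genes that passed higher with WS removed (44.4%), those of Mmp3, Mmp10, Mmp13 and Plaur. They also stood in 3 of 9 windows (33.3%) of the interferon genes that passed, those of Gbp2, Ifit3 and Xaf1, and in 0 of 9 windows of the contractile genes that passed. They stood in 6 of 29 windows (20.7%) of 23 of the called WS-higher genes, in 1 of 39 windows (2.56%) of 35 of the called PD-higher genes and in 4.9% of the 12238 windows of tested genes. Of these 6 windows more than 1 belonged to Krt13, through separate starts, and Mmp13 and Mmp10 lie near each other on chr9. Mmp3 was close to the limit in the main fit (0.15 ± 0.04 (SE), adjusted p = 0.0469). It did not pass in the 4 libraries alone (adjusted p = 0.15) or with CT in the fit (0.204). The letters for CRE, ETS, NF-kB, STAT, sterol and SRF sites were searched as well. The ETS letters (CCGGAAGT) stood in 8.1% of the windows of tested genes and in 0 windows of the sets above. The SRF letters stood in 2 of 9 windows (22.2%) of the contractile genes that passed and in 1.26% of the windows of tested genes. They stood in 1 of 29 windows of called WS-higher genes and in 0 of 39 of called PD-higher genes. Windows of the protease and inhibitor genes that did not pass, or passed higher with PD removed, were not counted apart. Nor were those of the interferon and contractile genes that did not pass. The shares in these lists therefore say nothing on the difference between the removals, and a part of AP-1 in it was not tested. A match is a description of the letters, not a binding site.

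Interferon response genes formed the other group that was higher with WS removed. Of 21 tested, 12 passed in this direction and none in the other, and the median was 0.47. The count of 12 was 11 in the 4 libraries alone and 9 with CT in the fit. Ifit1, an interferon-induced protein that binds foreign RNA, was at 21.2 and 23.7 FPKM with WS removed and 7.96 and 9.20 FPKM with PD removed (difference 1.29 ± 0.08 (SE), adjusted p = 6e-05). Isg15, a ubiquitin-like modifier, was at 38.3 and 33.7 FPKM against 17.8 and 12.5 FPKM (difference 1.21 ± 0.14 (SE), adjusted p = 0.00112). CT held 21.7 and 21.3 FPKM of Isg15 and -VC 15.3 and 15.9 FPKM, so that PD removal and -VC overlapped for Isg15. WS removal was the highest group for both genes. Without the second PD library the Isg15 difference was 0.97.

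Usp18, the protease that removes Isg15 from proteins, passed at 0.92 ± 0.11 (SE) (adjusted p = 0.00135), the transcription factor Irf7 at 0.67 ± 0.09 (SE), and the guanylate-binding protein Gbp2 at 0.70 ± 0.08 (SE). B2m, the light chain of MHC class I and the most abundant member, was at 593 and 587 FPKM with WS removed and 359.9 and 363 FPKM with PD removed (difference 0.71 ± 0.05 (SE), adjusted p = 9.11e-05). With CT in the fit B2m did not pass (adjusted p = 0.0562). Irf9, another interferon transcription factor, was at 15.3 and 18.1 FPKM with WS removed and 14.5 and 15.8 FPKM with PD removed and did not pass. The 3 members under the filter, Ifi44, Rsad2 and Mx1, lay at 0.03 to 0.282 FPKM with PD removed and 0.134 to 0.427 FPKM with WS removed.

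The promoters of Isg15 and Ifit1 are shown for the interferon element (TTTC, any 2 bases, TTTC), the core to which STAT and IRF factors bind. The windows are again the 250 bases before the start in GRCm38.p6, 5′ to 3′ along the gene, with the matches in capitals:
Isg15 (chr4:156200819-156201068, minus strand): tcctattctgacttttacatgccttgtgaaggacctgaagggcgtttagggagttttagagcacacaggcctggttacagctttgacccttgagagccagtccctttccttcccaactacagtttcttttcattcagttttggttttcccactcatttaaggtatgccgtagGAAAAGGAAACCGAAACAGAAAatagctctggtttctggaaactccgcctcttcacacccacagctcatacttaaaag
Ifit1 (chr19:34640639-34640888, plus strand): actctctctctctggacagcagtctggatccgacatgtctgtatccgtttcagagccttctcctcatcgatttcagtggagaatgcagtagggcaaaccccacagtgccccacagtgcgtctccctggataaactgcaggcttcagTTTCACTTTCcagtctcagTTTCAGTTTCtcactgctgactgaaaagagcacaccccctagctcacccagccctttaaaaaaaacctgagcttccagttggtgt
Isg15 has 3 overlapping matches, on the opposite strand, of which the nearest begins 66 bases before the start, and Ifit1 has 2, at 85 and 104 bases. The element, searched on both strands, stood in 6 of the 9 windows of interferon genes that passed (66.7%) and in 2.85% of the windows of all tested genes. The list was picked as interferon response genes, so a high share could be foreseen. Windows of the members that did not pass were not counted, so the share says nothing on the difference between the removals. It stood in 1 of 9 windows (11.1%) of the protease and inhibitor genes that passed higher with WS removed, that of Mmp13, and in 1 of 9 of the contractile genes that passed. It stood in 3 of 29 windows of the called WS-higher genes (10.3%), which include Isg15 and Ifit1 themselves, and in 1 of 39 of the called PD-higher genes (2.56%).

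Ccl8, a chemokine that attracts monocytes, was the most abundant called gene. It was at 703 and 696 FPKM with WS removed, 304 and 283 FPKM with PD removed, 358 and 346 FPKM in CT and 133 and 132 FPKM in -VC (difference 1.25 ± 0.05 (SE), adjusted p = 1.09e-05). WS removal lay above all other libraries. Other chemokines did not move with it as a group: of 10 tested, 3 passed with higher levels in WS removal (Ccl8, Ccl2 at 0.72 ± 0.13 (SE) and Cxcl12 at 0.36 ± 0.06 (SE)) and 2 with higher levels in PD removal (Cxcl14 at -1.03 ± 0.16 (SE) and Cxcl5 at -0.74 ± 0.07 (SE)). Ccl2 did not pass when either WS library or the second PD library was left out (adjusted p = 0.063, 0.0648 and 0.0544), and the Cxcl14 difference was -0.94 without the first WS library and -0.96 without the second PD library. Ccl7, a related chemokine, was at 65.3 and 74.1 FPKM with WS removed and 69.3 and 69.1 FPKM with PD removed. Fcgr2b, an Fc receptor of immune cells, was at 3.65 and 3.98 FPKM with WS removed and 0.799 and 0.840 FPKM with PD removed (difference 1.40 ± 0.11 (SE)). It reached 1 FPKM in WS removal alone and so had to differ. Cd40, a receptor of the TNF family and an NF-kB target, was called at 1.03 ± 0.14 (SE) and was at 0.995 without the second WS library and 0.85 without the first PD library. The list of NF-kB targets did not move with it: of 15 tested, 11 did not pass, 3 passed higher with WS removed and 1 higher with PD removed (median 0.06).

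Macrophage markers were counted beside these genes. Of 11 markers 3 were tested and 1 passed: Lyz2, lysozyme, at 5.56 and 5.63 FPKM with WS removed and 2.74 and 2.80 FPKM with PD removed. The summed level of the 11 was 11.37 and 12.16 FPKM with WS removed, 6.91 and 7.49 FPKM with PD removed, and 8.52 and 9.93 FPKM in CT. Ptprc, which marks all white blood cells, was at 0 and 0.00771 FPKM with WS removed and 0 and 0.0101 FPKM with PD removed, and Itgam was at or under 0.0571 FPKM in all 4 libraries. The part of such cells in the levels of Ccl8 and Fcgr2b was not tested. Complement and acute phase genes had 6 of 11 tested members higher with PD removed, such as C3, the central complement protein (-0.86 ± 0.06 (SE)), and 1, Saa3, an acute phase protein of lipoproteins, higher with WS removed (0.98 ± 0.11 (SE)); the count of 6 was 3 with CT in the fit.

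Of 12 keratins and envelope genes of stratified epithelia, a set put together after their values were seen, 8 were tested, 7 passed higher with WS removed and 5 of these were called, beside 0.256% of all tested genes called in this direction. Their levels were low. Krt13 was at 6.33 and 5.59 FPKM with WS removed and 0.816 and 1.40 FPKM with PD removed (difference 1.73 ± 0.15 (SE), adjusted p = 0.000204), and CT was between them at 3.32 and 3.497 FPKM. Krt16 was at 1.46 and 1.45 FPKM with WS removed and at or under 0.523 FPKM in all other libraries, so that it was tested through WS removal alone and had to differ. Krt4 and Lor, loricrin, a protein of the cornified layer, were called at 1.02 ± 0.15 (SE) and 1.15 ± 0.17 (SE). Krt4 differed by 0.89 without the first WS library and Lor by 0.98 without the second PD library. Krt6b was called at 1.45 ± 0.15 (SE) and Krt6a passed at 0.88 ± 0.10 (SE); these 2 genes are near-identical copies, and the assignment of reads between them is uncertain. Krt5, a marker of basal keratinocytes, was at 0.140 and 0.0761 FPKM with WS removed and 0.338 and 0.482 FPKM with PD removed. Trp63, which defines them, was at 0.143 and 0.0911 FPKM with WS removed and 0.0781 and 0.222 FPKM with PD removed. The 7 keratinocyte markers summed to 5.85 and 6.86 FPKM with WS removed, 4.54 and 4.58 FPKM with PD removed and 3.57 and 3.10 FPKM in CT, and the part of such cells was not tested. Of the simple epithelial keratins none passed, and Krt18 was at 25.1 and 25.3 FPKM with WS removed and 26.9 and 25.2 FPKM with PD removed.

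Several WS-higher genes belonged to none of the lists. Chodl, chondrolectin, a membrane lectin (chr16:78930948-78951733, plus strand), had the largest of all called differences. It was at 11.9 and 12.09 FPKM with WS removed, 2.01 and 2.43 FPKM with PD removed and 0.933 to 3.69 FPKM in the other groups (difference 2.02 ± 0.11 (SE), adjusted p = 2.9e-05). Penk, the precursor of enkephalin opioid peptides, was at 80.7 and 82.6 FPKM with WS removed and 32.1 and 21.1 FPKM with PD removed (difference 1.61 ± 0.20 (SE)), with -VC higher still at 97.6 and 123 FPKM. Ednrb, the endothelin B receptor, was at 7.74 and 7.54 FPKM against 1.43 and 2.02 FPKM (difference 1.68 ± 0.12 (SE)), WS removal being the highest and PD removal the lowest of the 5 groups. Plxdc1, a membrane receptor first known from tumour vessels, had the same order at 8.29 and 7.204 FPKM against 1.88 and 1.48 FPKM (difference 1.71 ± 0.11 (SE)). Sytl2, which docks secretory vesicles, and Akr1c18, a dehydrogenase that inactivates progesterone, were called at 1.37 ± 0.09 (SE) and 1.20 ± 0.16 (SE).

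Smaller differences, mostly under the 2-fold limit, ran through groups of proliferation and metabolic genes. Of 23 tested proliferation genes, 13 passed with higher levels in PD removal and none in WS removal, with a median of -0.37 and no called member. Cenpa, the histone of centromeres, differed by -0.97 ± 0.12 (SE), from 8.30 and 9.11 to 4.17 and 3.77 FPKM, and Top2a, the topoisomerase of dividing cells, by -0.50 ± 0.08 (SE) (adjusted p = 0.00451). Pcna, the clamp of the replication machinery, did not pass, at 31.4 and 31.4 FPKM with PD removed and 29.8 and 29.9 FPKM with WS removed. The count of 13 was 4 in the 4 libraries alone, 8 with the replicate number as a block, 3 when either WS library was left out, and 6 and 4 without the first and second PD library. The 25 genes of this list summed to 178.1 and 182.8 FPKM with PD removed and 140.9 and 142.7 FPKM with WS removed.

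Cholesterol synthesis and uptake had 12 of 23 tested members higher with PD removed and none higher with WS removed (median -0.22). Nsdhl, a sterol dehydrogenase of the late pathway, was at 20.0 and 21.7 FPKM with PD removed and 14.3 and 13.9 FPKM with WS removed (difference -0.53 ± 0.07 (SE), adjusted p = 0.0013), and the isomerase Idi1 differed by -0.41 ± 0.06 (SE). This count was 6 and 5 without the first and second WS library. Glycolysis and hypoxia genes had 13 of 19 tested members higher with PD removed and none higher with WS removed (median -0.24). Pgk1, a glycolytic kinase, was at 132 and 129.8 FPKM with PD removed and 85.02 and 83.9 FPKM with WS removed (difference -0.63 ± 0.05 (SE), adjusted p = 0.000159), and Eno1, enolase, differed by -0.48 ± 0.05 (SE). Without the first and second WS library 7 and 4 members passed, without the first PD library 7, and without the first and second -VC library 7 and 8. Imprinted growth genes had 7 of 12 tested members higher with PD removed (median -0.30), among them Peg3 (-0.79 ± 0.05 (SE)), Mest (-0.73 ± 0.05 (SE)) and H19 (-0.67 ± 0.06 (SE)), and 4 when the first WS, the second PD or either -CHIR library was left out. Retinoid genes divided: the binding protein Crabp2 and the reductase Dhrs3 passed higher with PD removed at -0.91 ± 0.07 (SE) and -0.83 ± 0.08 (SE), and Cyp26b1, which degrades retinoic acid, passed higher with WS removed at 0.60 ± 0.05 (SE).

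**Figure D3:**
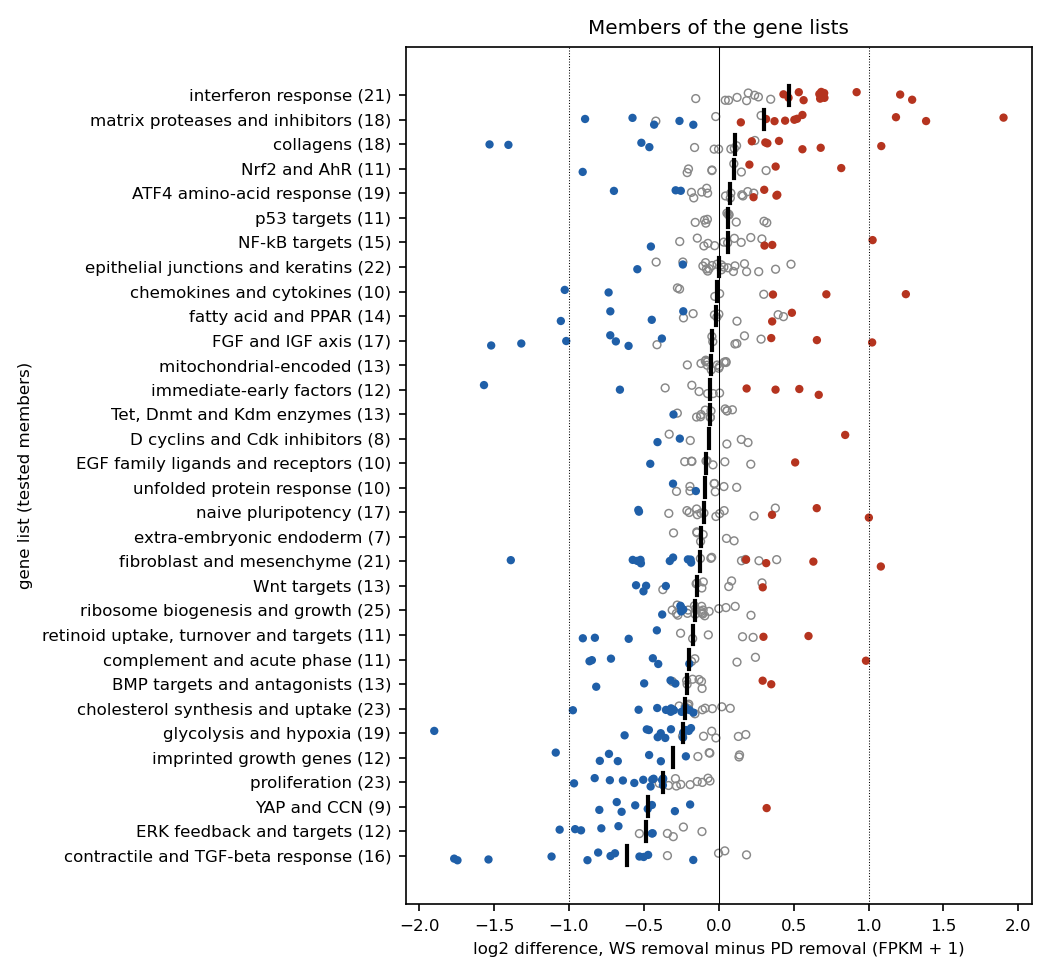
Differences on the log2(FPKM + 1) scale, WS minus PD removal (x axis), of the tested members of 32 gene lists (rows, tested members in brackets). Filled points passed at an adjusted p under 0.05, red for higher with WS removed and blue for higher with PD removed; open points did not pass, black bars are list medians and dotted lines mark 2-fold; the bars run from -0.61 for the contractile list to 0.47 for the interferon list.

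Pou5f1, which encodes Oct4, was at 59.7 and 55.2 FPKM with WS removed and 60.6 and 55.8 FPKM with PD removed (difference -0.02 ± 0.07 (SE), adjusted p = 0.897). Of 17 tested naive pluripotency genes, 3 passed with higher levels in WS removal and 2 in PD removal, and the median was -0.10. Nr0b1, a nuclear receptor of the naive state, passed higher with PD removed at -0.53 ± 0.10 (SE). Dppa2 passed the same way at -0.54 ± 0.14 (SE), but it reached 1 FPKM in PD removal alone and so had to differ. It did not pass in the 4 libraries alone (adjusted p = 0.0854) or with CT in the fit (0.0641). Tdgf1, a Nodal co-receptor, and the transcription factor Klf2 passed higher with WS removed at 0.65 ± 0.16 (SE) and 0.36 ± 0.07 (SE). Sall4 was at 2.87 and 3.05 FPKM with WS removed and 3.22 and 3.52 FPKM with PD removed, and did not pass. Lin28a was at 2.26 and 2.06 FPKM with WS removed and 2.73 and 2.16 FPKM with PD removed, and did not pass either. Nanog was under the filter, at 0.0390 and 0.115 FPKM with WS removed and 0.178 and 0.0479 FPKM with PD removed. Dppa3, a germ cell and naive state gene, was called at 1.002 ± 0.20 (SE) (adjusted p = 0.0133), with 2.57 and 1.69 FPKM against 0.661 and 0.438 FPKM. Its level was low, and CT, at 1.84 and 0.873 FPKM, overlapped WS removal; the difference was 0.80 without the first WS library and 0.90 without the second PD library. The WS-higher count of 3 was 0 and 1 without the first and second WS library and 1 without the second PD library. The PD-higher count of 2 was 0 when the first WS, the second WS or the first PD library was left out, and 1 for each of the other 5.

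Of 22 tested epithelial junction and keratin genes, 2 passed higher with PD removed (Dsp and Dsg2, both desmosome proteins) and none higher with WS removed, and the median was 0.00. Neither of them passed without the first WS library (adjusted p = 0.112 for Dsp and 0.104 for Dsg2) or the second PD library (0.105 and 0.0802), nor Dsp when the second WS or either -VC library was left out (0.122, 0.0596 and 0.0597). Cdh1, E-cadherin, was at 21.4 and 21.6 FPKM with WS removed and 22.9 and 23.6 FPKM with PD removed. Epcam was at 31.1 and 28.5 FPKM with WS removed and 33.8 and 29.8 FPKM with PD removed. No member passed among the 7 tested genes of extra-embryonic endoderm, the 11 tested p53 targets and the 13 mitochondrial-encoded genes. Gata4, an endoderm factor, was at 18.3 and 17.5 FPKM with WS removed and 18.2 and 16.3 FPKM with PD removed. The 9 genes of the 2-cell-like list and the 14 of the germline list were all below the filter.

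The place of the other 6 libraries (CT, -CHIR and -VC) was counted for the called genes, as a description. These genes were chosen for a 2-fold gap between WS and PD removal. That gap by itself tends to put WS or PD removal at the edge of the 10 libraries. The same counts were not made over all tested genes. Of the 54 called genes that were higher with PD removed, the 2 PD libraries lay outside the range of the other 8 libraries in 33, the 2 WS libraries did so in 9, both did in 6 and neither in 6. Of the 34 that were higher with WS removed, the WS libraries lay outside in 15, the PD libraries in 3, both in 10 and neither in 6. Leaving the second CT library out moved none of these counts. They include 5 PD-higher and 2 WS-higher genes that reached 1 FPKM in that removal alone and had to lie outside; without them PD stood outside in 28 of 49, and WS in 14 of 32 with both in 9. Genes in which PD removal stood alone include Ndufa4l2, Sfrp1, Igfbp3, Igfbp2, Thbs1 and Scd1. WS removal stood alone for Ogn, Tagln, Ltbp2, Gpc3 (a glypican that limits growth signals) and Aspn on the low side, and for Chodl, Ccl8, Col18a1, Mmp13 and Isg15 on the high side. Both stood outside, on opposite sides, for Acta2, Actg2, Hs6st2, Ednrb, Plxdc1 and Krt13.

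**Figure D4:**
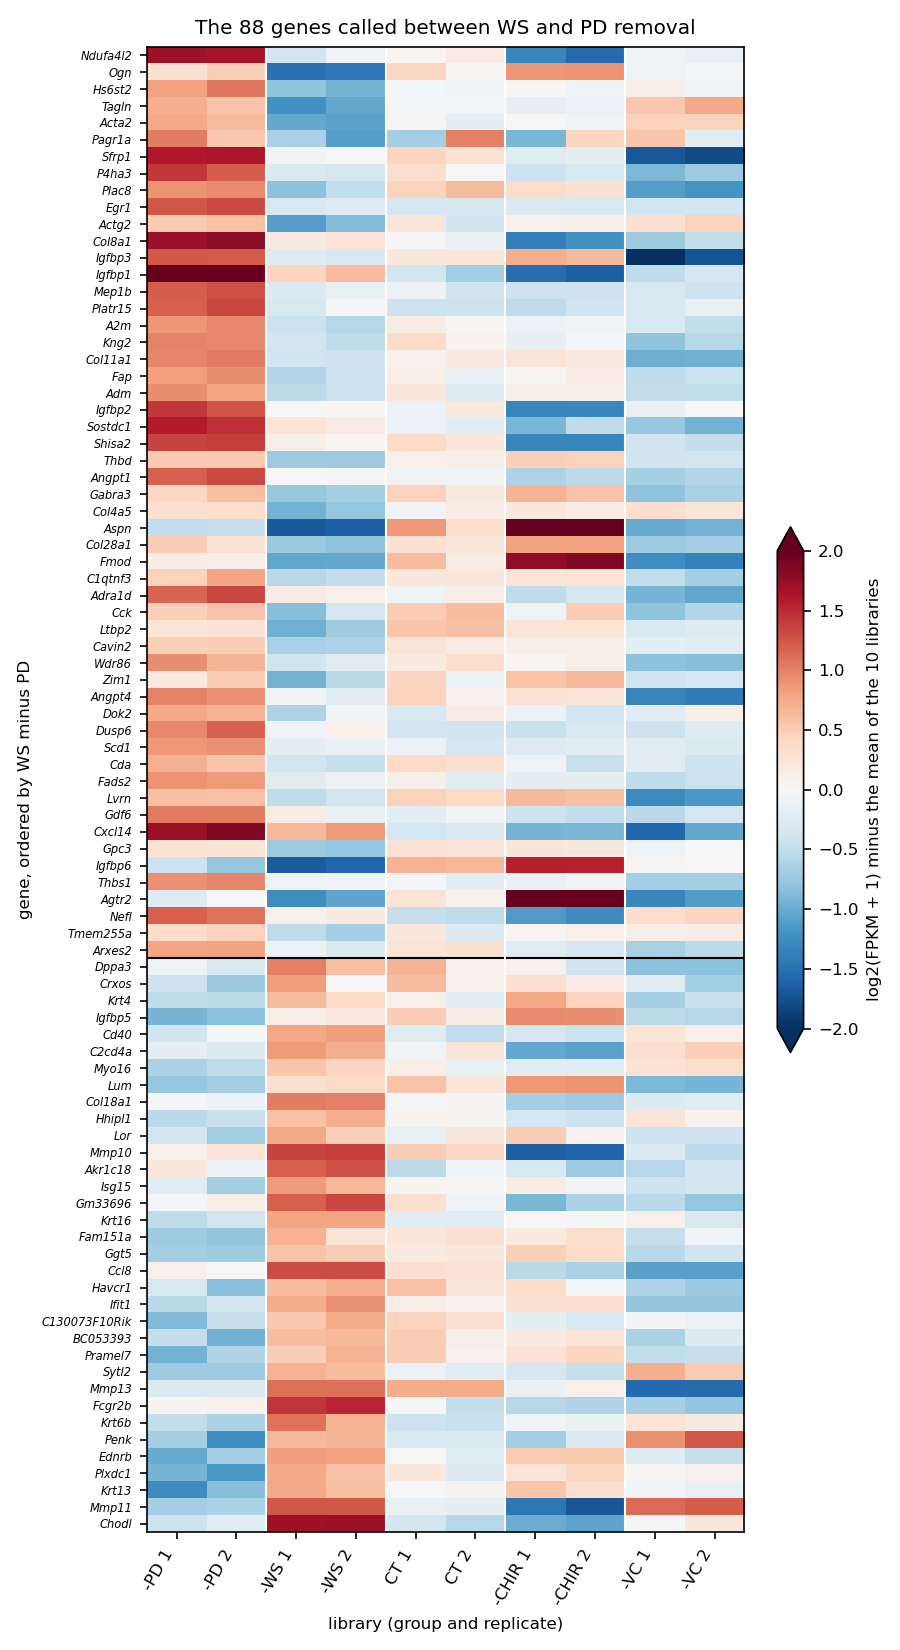
Levels of the 88 called genes (rows, ordered by WS minus PD) in the 10 libraries (columns, 2 per group), as log2(FPKM + 1) minus the mean of the 10 libraries, red for high and blue for low, with colours ending at 2 and -2. Above the black line are the 54 genes higher in PD removal and below it the 34 higher in WS removal; the 2 libraries of a group have like colours in most rows, and CHIR and VC removal differ from both in many of the rows.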

How the data were processed

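Per the labels' protocols, library preparation and sequencing (150 bp reads) were done by Novogene, and HISAT2 2.2.1, StringTie 2.0, fastp 0.20.1 and the mm10 build are named in the submitters' processing notes; the annotation and the use of strand are not given in the sources used here. The authors deposited FPKM values for 55401 gene identifiers in 10 libraries, of which 99.5% matched a GENCODE M21 symbol. Depth was read from steps between low values, and no counts were recovered, so no count model was run. Values were taken as log2(FPKM + 1). The 13290 genes that reached 1 FPKM in 2 or more of the 10 libraries were tested with limma 3.58.1 (R 4.3.3), with 1 coefficient per removal group, an empirical Bayes trend and the 8 removal libraries in the fit, and all adjusted p-values are limma's with Benjamini-Hochberg adjustment. The script was tested on simulated data. CT was left out of this fit and entered 1 alternative fit.

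Genes were called at an adjusted p under 0.05 and at least 2-fold; the rule without a size limit was added after the results were seen. Named genes are the 15 largest called differences in each direction with a mean of at least 5 FPKM in the higher group, non-overlapping libraries and no predicted gene model as symbol, the 5 called genes with the highest level, and members of the lists; other called genes were named after their values were seen. The comparison, lists and tests were chosen with earlier results of these data known, and lists are described by counts and medians, with no set test. Gene positions are from GENCODE M21 (GRCm38, the assembly of mm10) and promoter sequences from RefSeq (GRCm38.p6). Some list members are counted but are not reported here by name.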

Additional observations from a re-analysis of the deposited data

How the results depend on the processing

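The 88 called genes were 89 in the 4 libraries alone, 86 with CT in the fit and 83 after centring on the median. Of the 88, these held 87, 86 and 80. With 1 library left out, some of the 88 fell under the 2-fold limit. Dppa3 was at 0.80 without the first WS library, and Igfbp6 at -0.845 without the first PD library. Which genes were called thus depended in part on single libraries. On scales that give the added 1 less weight, more low genes passed 2-fold: 159 as TPM (67 and 92), 166 as TPM without mitochondrial genes (69 and 97) and 228 with a pseudocount of 0.1 (82 and 146). These held 88, 88 and 87 of the 88. A filter that leaves out the second CT library, chosen after seeing the data, gave 88 calls, and 700 and 1093 at an adjusted p alone. With at least 5 FPKM in 2 libraries, 8861 genes were tested and 20 of the called ones were higher with WS removed. The count at an adjusted p alone depended more on the fit: 404 and 596 in the 4 libraries alone, 383 and 595 with CT in the fit, 308 to 687 and 489 to 924 with 1 library left out, and 715 higher with PD removed with no filter. Here the cause was not tested.

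Same-numbered libraries did not deviate together over the tested genes (correlations of deviations -0.058 to 0.055). This cannot tell whether they shared a culture or batch, since a shared influence on few genes would leave little correlation. With the replicate number as a block, 90 genes were called, 35 and 55 by direction. For 152 named genes, 2689 of 2861 values kept their direction and side of the threshold, 166 lost the call or the pass, 1 gained it and 5 changed sign: Ccl7 and Gata4, with ranges of -0.0841 to 0.096 and -0.0255 to 0.1288 over the fits that leave out 1 library, and Pou5f1, at 0.01 after centring and -0.0766 to 0.0389 over those fits. Dusp4 passed without the second PD library (adjusted p = 0.0405). With 2 libraries a group and no counts, genes under 1 FPKM were not resolved.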
